A study of Mus musculus with 12 samples.

Results

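The ephrin, netrin and Slit guidance genes are secreted or membrane-bound cues and the cell surface receptors that read them. They were taken from the authors' deposited table as every feature with a single gene name that is an ephrin (Efna, Efnb), an Eph receptor (Epha, Ephb), a netrin (Ntn), a netrin-G protein (Ntng), a netrin receptor (Dcc, Neo1, Unc5) or a Slit or Robo gene. The names gave 41 genes, 17 ligands and 24 receptors, of 23226 features with a single name. RNA sequencing covered 3 small cell lung cancer lines of the mouse, which derive from tumors, are labelled Trp53-/-;Rb1-/- and grow as floating spheres, with 2 samples in each of 6 groups, 12 in all. Controls of 16T and KP1, both labelled Nfib high, expressed shLuc (shControl in the characteristics), and their counterparts expressed sh2, directed at Nfib. KP22, labelled Nfib low, held an empty vector in its controls and Nfib cDNA in their counterparts. All 6 groups share the loss of Trp53 and Rb1, and each comparison rests on 1 line and 1 construct. Whether the cultures were clones or pools, and which promoter drove each construct, is not given in the sources used here.

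Eph receptors are receptor tyrosine kinases that bind ephrins on neighboring cells, and signals can run into both cells; A-type receptors mainly bind the lipid-anchored ephrin-A proteins and B-type receptors the transmembrane ephrin-B proteins. Netrin-1 attracts or repels growing axons depending on whether DCC alone or DCC with an UNC5 receptor reads it, and DCC and UNC5 proteins are also known as dependence receptors that can trigger cell death when no ligand is bound. Slit proteins repel axons and migrating cells through Robo receptors, and Slit and Robo genes are expressed in lung neuroendocrine cells, the cell type that small cell lung cancer resembles.

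The values are the results of a fit by the authors, so no value per sample is given, and neither the total count of any library nor whether replicates overlapped is known here. For each feature the authors' deposited table holds 1 mean normalized count over all libraries and, per comparison, a log2 fold change with its SE (written ± below) and an adjusted p. Below, a gene rose or fell where that adjusted p was below 0.05. No label says that the duplicates were separate cultures, so the p-values reflect the spread of these samples alone, which may be technical. The fit may also have shared its spread over all 12 libraries rather than the samples of 1 comparison, which is not known here. The headings give no direction of comparison, which was read from Nfib, at -1.08 ± 0.035 in 16T, -1.32 ± 0.035 in KP1 and 1.80 ± 0.036 in KP22, per the authors' deposited table. The neuroendocrine markers Chga and Syp had means of 25383 and 5289.7. The 6 leukocyte markers lay between 0 and 157, with Cd3e at 0, and the 4 endothelial ones between 0.215 and 495. Fibroblast markers lay between 1.01 and 2220, the highest being Pdgfra, and airway and alveolar markers between 0 and 171, with Scgb1a1 at 0. Of the markers of other cell types that were tested, 2 fibroblast, 1 endothelial and 1 alveolar marker changed in 16T, 1 fibroblast and 1 endothelial marker in KP1 and 1 endothelial marker in KP22. The leukocyte marker Lyz2, at a mean of 13.4, had 2.18 ± 0.51 in 16T and no adjusted p there. In the authors' test against a change of 0.5 its adjusted p in 16T was 0.0253. Kdr, a receptor of vascular endothelial growth factor, fell in every line (-1.48 ± 0.18, -1.62 ± 0.21 and -1.76 ± 0.16 in 16T, KP1 and KP22, per the authors' deposited table). Sftpc, encoding a surfactant protein, fell in 16T (-2.07 ± 0.25), where Dcn (0.61 ± 0.21) and Pdgfra (0.24 ± 0.077) rose, and Pdgfra fell in KP1 (-0.47 ± 0.069), per the authors' deposited table. Calca, a neuroendocrine peptide gene, rose by 1.31 ± 0.049 in 16T and 0.90 ± 0.048 in KP1 and fell by 1.71 ± 0.056 in KP22, per the authors' deposited table. Their part in the changes of the guidance genes was not tested. In such bulk RNA, fewer cells of a type and less RNA per cell cannot be told apart.

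Of the 41 genes, 40 had a mean above 0 and 34 a mean of at least 10. Compared per kb of exon, the highest mean normalized counts were those of the receptors Ephb2 (2731 per kb) and Ephb3 (2105 per kb), the netrin Ntn4 (1231 per kb), Slit1 (1231 per kb) and Robo1 (916 per kb). Neo1 (852 per kb) and Unc5a (772 per kb) were the highest of the netrin receptors, and Efna5 (335 per kb) was the highest ephrin. Robo4, the Robo gene of vascular endothelium, was listed at 0. The genes Epha6, Epha10, Ephb4, Ntn5, Ntng1 and Robo3 had means between 2.34 and 9.72, and the authors' deposited table gave them no adjusted p in 16T and KP1 and no call in KP22, where their log2 fold changes lay between -1.05 and 0.49. These levels are means over 3 different lines and carry no spread, so neighbors in the order are not distinguished.

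**Figure D1:**
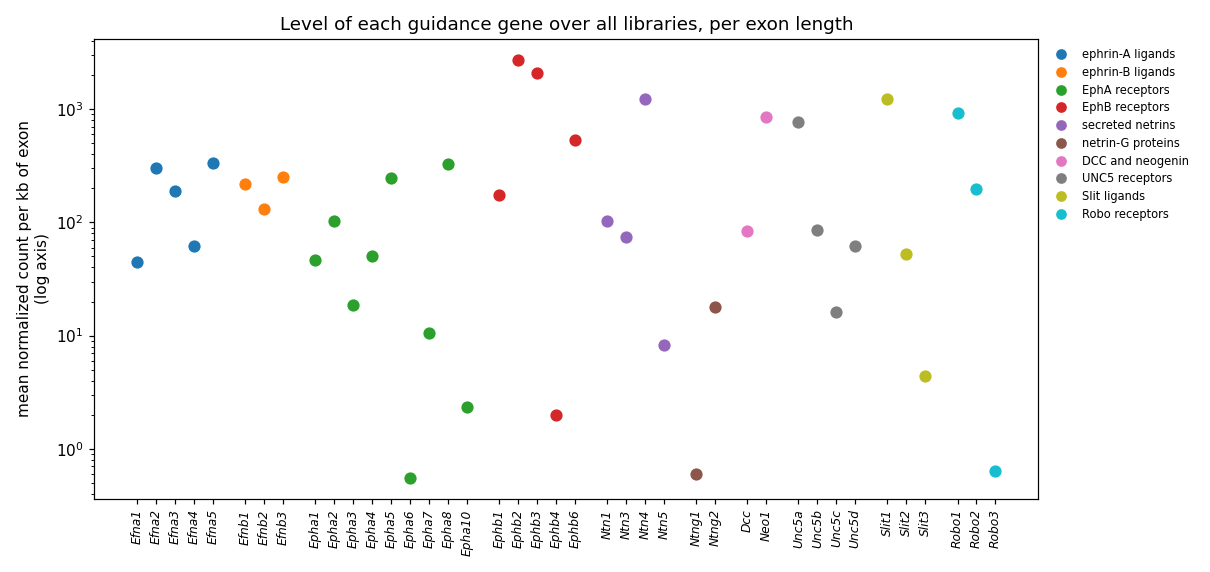
Mean normalized count per kb of exon (log axis) of the 40 guidance genes with a mean above 0, each point 1 gene and 1 mean over all libraries, colored by family. Ephb2 and Ephb3 lie highest, and Epha6, Ntng1 and Robo3 lie below 1 per kb.

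Of the 34 genes tested in every comparison, 29 were called in at least 1 (85.3%), as were 71.5% of all single-name features tested. In 16T 12 of 34 tested genes rose and 13 fell, 25 in all (73.5%), where 45.3% of all single-name features were called (20.0% higher and 25.3% lower). In KP1 7 rose and 16 fell, 23 of 34 (67.6%), against a background of 37.2% (17.6% higher and 19.6% lower). In KP22 with Nfib cDNA 12 of 40 rose and 8 fell (50.0% in all), against 38.4% (19.5% higher and 18.8% lower). Calls with an absolute log2 fold change of at least 1 numbered 10 of 34 in 16T, 9 of 34 in KP1 and 12 of 40 in KP22. Over all features such calls made up 6.36%, 5.96% and 8.07%. The median absolute log2 fold change of the guidance genes was 0.65, 0.45 and 0.52 in 16T, KP1 and KP22, and over all features 0.24, 0.19 and 0.25. When p-values were taken from a t distribution (6 degrees of freedom) rather than a normal one, KP1 had 14 calls. The share of all features called in KP1 in that setting was not computed, so this count has no background beside it.

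**Figure D2:**
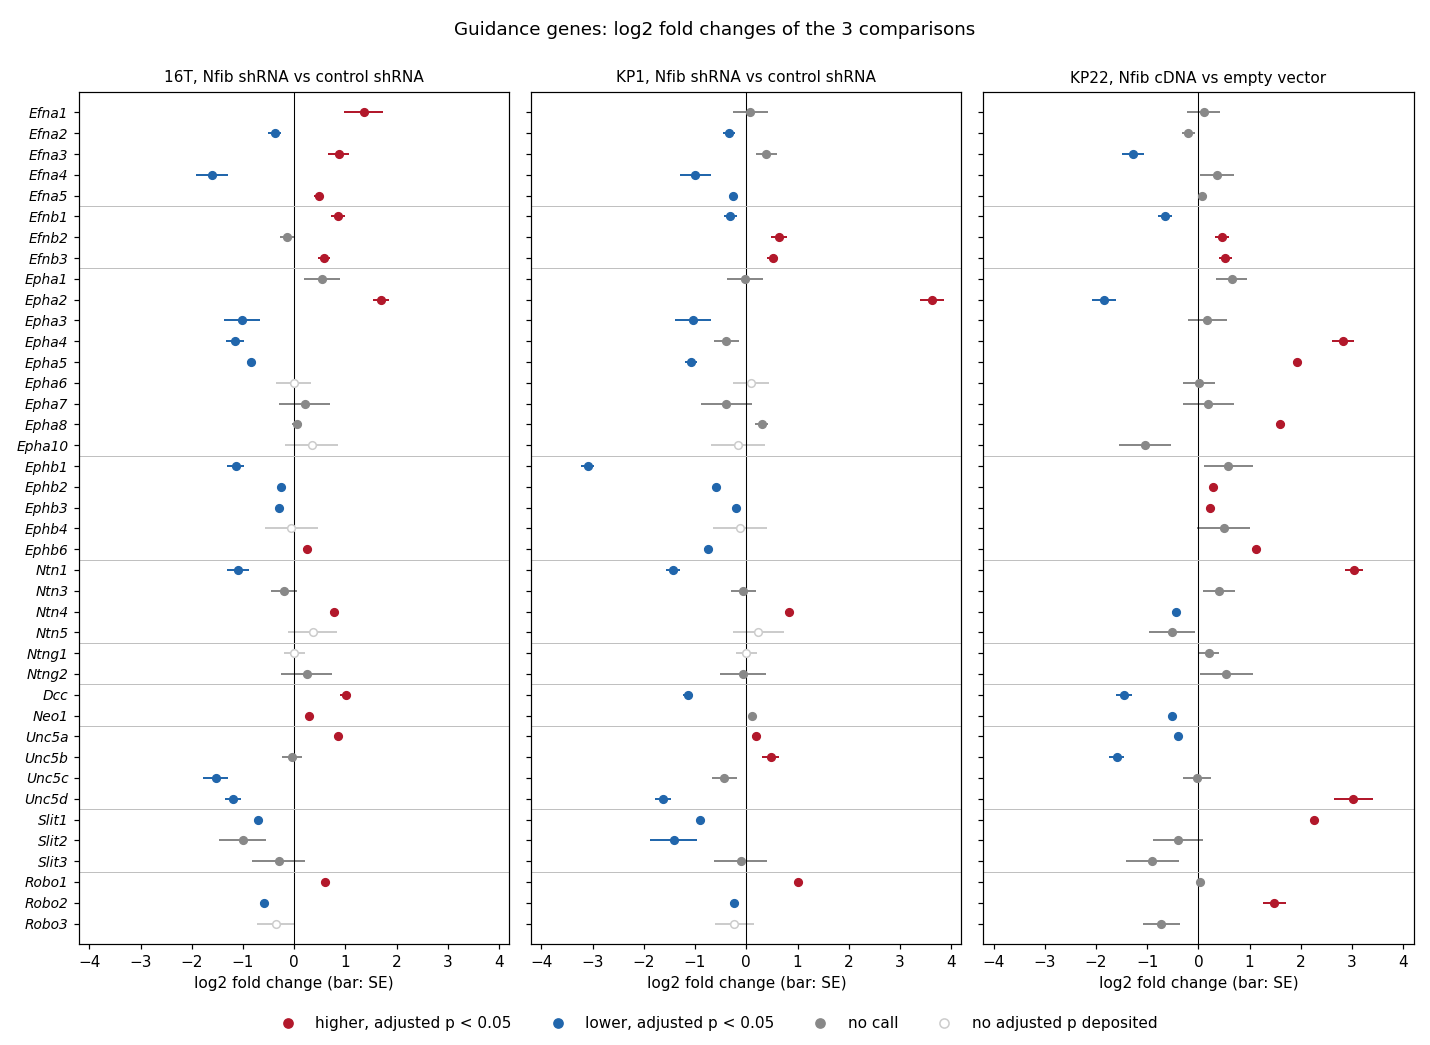
Log2 fold changes with SE of the 40 guidance genes with a mean above 0 in the 3 comparisons, ordered by family with ligands and receptors of each system together, and colored by call. Calls of both directions occur in every comparison, and in KP22 the EphA receptors run from -1.84 (Epha2) to 2.82 (Epha4).

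Among the ephrin-A ligands, 3 rose and 2 fell in 16T, 0 rose and 3 fell in KP1, and 0 rose and 1 fell in KP22, of 5 tested each time. Efna1, a ligand of EphA2, rose in 16T (1.35 ± 0.38) and had 0.08 ± 0.35 in KP1 and 0.10 ± 0.33 in KP22, per the authors' deposited table. Efna3 had a mirrored pair of calls, 0.87 ± 0.20 in 16T and -1.27 ± 0.22 in KP22 (adjusted p = 8.82e-05 and 3.6e-08), with 0.39 ± 0.21 in KP1, per the authors' deposited table. Efna4 fell in both knockdown lines, by 1.60 ± 0.31 in 16T and 1.0 ± 0.30 in KP1, and had 0.37 ± 0.33 in KP22, per the authors' deposited table. These 3 genes lie on the minus strand within 66.3 kb of chromosome 3 (mm10, 89271730 to 89338028), where Efna1 and Efna3 thus rose and Efna4 fell in 16T. Efna2 fell slightly in 16T and KP1 (-0.38 ± 0.12 and -0.34 ± 0.12) and had -0.20 ± 0.13 in KP22, per the authors' deposited table. Efna5, the most abundant ephrin per length, rose in 16T (0.48 ± 0.083), fell in KP1 (-0.26 ± 0.082) and had 0.07 ± 0.09 in KP22, per the authors' deposited table.

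All 3 ephrin-B ligands changed in KP1 and in KP22, and 2 of 3 in 16T, where 37.2%, 38.4% and 45.3% of all features were called. Efnb1, an X-linked gene, rose in 16T (0.86 ± 0.14) and fell in KP1 (-0.32 ± 0.13) and in KP22 (-0.65 ± 0.14), as the authors' deposited table gives it. Efnb2, the ephrin known for its role in arteries, rose in KP1 (0.64 ± 0.16) and in KP22 (0.46 ± 0.14) and had -0.14 ± 0.14 in 16T in the authors' deposited table. Efnb3 was the one guidance gene that rose in every comparison of the authors' deposited table, by 0.59 ± 0.12 in 16T, 0.51 ± 0.11 in KP1 and 0.53 ± 0.13 in KP22. It was thus higher both where Nfib was lowered and where it was raised. Under that t distribution the calls of Efna2 in 16T, of Efna2, Efna4, Efna5 and Efnb1 in KP1 and of Efnb2 in KP22 were lost.

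The largest rise of a guidance gene in either knockdown line was that of an EphA receptor. Epha2 (17 exon intervals, chromosome 4, 141301221 to 141329384, mm10), a receptor kinase of epithelial cells, rose by 1.69 ± 0.16 in 16T (adjusted p = 9.61e-24) and by 3.62 ± 0.23 in KP1 (adjusted p = 1.83e-52) in the authors' deposited table. That is 3.23-fold and 12.3-fold, at a mean normalized count of 402. In KP22 with Nfib cDNA Epha2 fell by 1.84 ± 0.24 (adjusted p = 8.23e-14) in the authors' deposited table, which is 3.58-fold lower. Epha5 and Epha4, receptors known from neurons, had the reverse pattern. Epha5 (chromosome 5, 84054765 to 84417382) fell by 0.84 ± 0.077 in 16T and by 1.08 ± 0.12 in KP1 and rose by 1.93 ± 0.084 in KP22 (adjusted p = 4.06e-113), 3.80-fold, per the authors' deposited table. Epha4 (chromosome 1, 77367185 to 77515088) fell by 1.15 ± 0.18 in 16T, had -0.39 ± 0.25 in KP1 (adjusted p = 0.25) and rose by 2.82 ± 0.21 in KP22, 7.08-fold, in the authors' deposited table.

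Of the other EphA receptors, Epha3 fell in 16T (-1.02 ± 0.35) and KP1 (-1.04 ± 0.35) at a mean of 73.4 and had 0.18 ± 0.38 in KP22, per the authors' deposited table. Both of its calls were lost under that t distribution. Epha8 rose in KP22 (1.60 ± 0.087, 3.03-fold) and had 0.05 ± 0.10 in 16T and 0.30 ± 0.13 in KP1 in the authors' deposited table; the KP1 value passed the threshold when only features with a mean of at least 100 were adjusted over (adjusted p = 0.0494) and when effects were recentred on the median gene (adjusted p = 0.0399). Epha1 and Epha7, with means of 129 and 79.1, had no call in any comparison, with log2 fold changes between -0.39 and 0.65 and SEs between 0.31 and 0.50 in the authors' deposited table. In sum 1 EphA receptor rose and 3 fell of 7 tested in 16T, 1 and 2 of 7 in KP1, and 3 and 1 of 9 in KP22.

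The promoters of 4 Eph receptors are shown as examples of transcripts that changed with Nfib in opposite directions. They are not all Eph receptors with such changes. NFI proteins are known to bind the palindrome TTGGC, then any 5 bases, then GCCAA and, more weakly, 1 arm of it, searched here as TTGGCA on both strands. The sequences are the 250 bases before the RefSeq gene start (GRCm38.p6, the assembly of mm10), written 5′ to 3′ on the strand of the gene, with matches of TTGGCA or its reverse complement in capitals. Epha5 and Ephb2 fell with the shRNA in both lines, Epha4 fell in 16T, all 3 rose with the cDNA, and Epha2 went the other way in every line. The windows are chr5:84417383-84417632 (minus strand) for Epha5, chr1:77515089-77515338 (minus strand) for Epha4, chr4:136836013-136836262 (minus strand) for Ephb2 and chr4:141300971-141301220 (plus strand) for Epha2.
Epha5: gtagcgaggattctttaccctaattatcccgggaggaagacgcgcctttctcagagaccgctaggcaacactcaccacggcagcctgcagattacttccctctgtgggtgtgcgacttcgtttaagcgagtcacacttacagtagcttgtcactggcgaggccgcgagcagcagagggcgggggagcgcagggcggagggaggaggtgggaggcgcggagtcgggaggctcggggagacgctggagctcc
Epha4: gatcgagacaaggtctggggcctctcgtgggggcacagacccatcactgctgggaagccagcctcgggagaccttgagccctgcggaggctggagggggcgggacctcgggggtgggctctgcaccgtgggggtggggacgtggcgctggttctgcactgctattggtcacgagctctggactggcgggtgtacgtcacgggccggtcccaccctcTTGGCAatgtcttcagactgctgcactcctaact
Ephb2: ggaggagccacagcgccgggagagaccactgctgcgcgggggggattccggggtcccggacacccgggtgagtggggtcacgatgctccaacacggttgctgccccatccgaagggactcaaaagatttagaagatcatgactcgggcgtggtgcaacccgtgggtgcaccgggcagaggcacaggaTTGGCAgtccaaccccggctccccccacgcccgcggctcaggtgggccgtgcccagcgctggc
Epha2: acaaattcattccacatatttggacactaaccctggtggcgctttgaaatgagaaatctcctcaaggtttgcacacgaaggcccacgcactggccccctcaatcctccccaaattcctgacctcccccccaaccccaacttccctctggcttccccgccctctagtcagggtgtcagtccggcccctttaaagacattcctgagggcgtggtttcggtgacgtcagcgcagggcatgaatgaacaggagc
The Epha4 window holds 1 such match that begins 34 bases before the start, and the Ephb2 window 1 that begins 63 bases before it. The windows of Epha5 and Epha2 hold neither these letters nor the palindrome. Nor does the window of Ephb3, which had the same calls as Ephb2 and is not printed. The share of printed windows with a match therefore does not stand for the guidance genes. RefSeq windows were matched for 36 of the 41 genes (41 windows). TTGGCA or its reverse complement occurred in 4 of them, those of Epha4, Ephb2, Ntng2 and Robo4, and in 12.3% of all 32851 windows. The palindrome occurred in 0 of the 41 and in 12 of all windows (0.0365%). The median GC content of the 41 windows was 64.8%, and that of all windows 52.4%. The match of letters says nothing of binding.

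Of the EphB receptors, 3 of 4 tested fell and 1 rose in 16T, all 4 fell in KP1 and 3 of 5 rose in KP22. Of all features, 25.3% fell and 20.0% rose in 16T, 19.6% fell in KP1 and 19.5% rose in KP22. Ephb1 (chromosome 9, 101922128 to 102354693) had the largest fall of any guidance gene, -3.10 ± 0.12 in KP1 (adjusted p = 5.69e-142), 8.57-fold lower, and it fell by 1.14 ± 0.16 in 16T, per the authors' deposited table. Its value in KP22 was 0.58 ± 0.48 in the authors' deposited table, with an SE well above the 0.16 and 0.12 of the knockdown lines. Ephb2 and Ephb3, the 2 most abundant guidance receptors per length, are known from epithelial sorting and axon pathfinding. Ephb2 fell by 0.25 ± 0.047 in 16T and 0.58 ± 0.047 in KP1 and rose by 0.29 ± 0.046 in KP22, per the authors' deposited table. Ephb3 fell by 0.30 ± 0.043 and 0.20 ± 0.044 and rose by 0.23 ± 0.045 in the same order in the authors' deposited table. All 6 of these changes passed the threshold and none reached a log2 fold change of 1. Ephb6, which lacks kinase activity, rose in 16T (0.26 ± 0.079), fell in KP1 (-0.75 ± 0.078) and rose in KP22 (1.12 ± 0.082) in the authors' deposited table. Its rise in 16T was lost under that t distribution. Ephb2 lies 93.4 kb from Epha8 on chromosome 4, and both rose in KP22.

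The secreted netrins Ntn1 and Ntn4 changed in every comparison, in opposite directions. Ntn1 (chromosome 11, 68209364 to 68386826), the founding ligand of DCC and UNC5 receptors, fell by 1.10 ± 0.22 in 16T and 1.43 ± 0.13 in KP1 in the authors' deposited table. In KP22 it rose by 3.04 ± 0.18 (adjusted p = 2.57e-62), 8.23-fold, the largest rise of a guidance gene there in the authors' deposited table. Ntn4, a netrin of basement membranes that binds laminin, rose by 0.77 ± 0.073 in 16T and 0.84 ± 0.073 in KP1 and fell by 0.43 ± 0.077 in KP22, per the authors' deposited table. Ntn3 had a mean of 134 and no call, with values between -0.20 and 0.40 in the authors' deposited table. Ntng2, a lipid-anchored netrin-G protein, had 0.24 ± 0.50, -0.06 ± 0.46 and 0.54 ± 0.52 in 16T, KP1 and KP22 at a mean of 27.9, per the authors' deposited table.

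Dcc (29 exon intervals, chromosome 18, 71253632 to 72351069), the attractive netrin receptor and a gene first described as deleted in colorectal cancer, went in opposite directions in the 2 knockdown lines. It rose by 1.01 ± 0.11 in 16T (adjusted p = 2.63e-18) and fell by 1.14 ± 0.11 in KP1 (adjusted p = 1.31e-25) in the authors' deposited table, which is 2.01-fold higher and 2.20-fold lower. In KP22 with Nfib cDNA it fell by 1.45 ± 0.16 (adjusted p = 2.42e-19) in the authors' deposited table. Its relative Neo1, encoding neogenin, which also binds repulsive guidance molecules, rose slightly in 16T (0.29 ± 0.052), had 0.11 ± 0.052 in KP1 (adjusted p = 0.0946) and fell in KP22 (-0.51 ± 0.052) in the authors' deposited table. The KP1 value of Neo1 passed the threshold when effects were recentred on the median gene (adjusted p = 0.0378).

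The 4 UNC5 receptors, which mediate repulsion from netrin-1, did not move as a group. Unc5d (chromosome 8, 28646717 to 29219636) fell by 1.20 ± 0.15 in 16T and 1.63 ± 0.15 in KP1 and rose by 3.03 ± 0.37 in KP22, 8.14-fold (adjusted p = 1.03e-14), in the authors' deposited table. Unc5a rose by 0.85 ± 0.082 in 16T and 0.20 ± 0.079 in KP1 and fell by 0.39 ± 0.076 in KP22, per the authors' deposited table. Unc5b, known from vessels, had -0.04 ± 0.20 in 16T, rose in KP1 (0.47 ± 0.17) and fell in KP22 (-1.60 ± 0.15, 3.02-fold lower) in the authors' deposited table. Unc5c fell in 16T (-1.54 ± 0.25, 2.90-fold lower) and had -0.43 ± 0.25 in KP1 and -0.03 ± 0.28 in KP22, per the authors' deposited table. The calls of Unc5a and Unc5b in KP1 were lost under that t distribution. The SE of Unc5d in KP22 was above the median of 0.18 there for features with a mean of 100 to 1000. Ntn1 and Unc5d, a ligand and a receptor of the same system, thus both fell in the knockdown lines and rose in KP22, and Ntn4 and Unc5a did the reverse.

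Of the Slit ligands, Slit1 (chromosome 19, 41600257 to 41743856) was the most abundant and changed in every line. It fell by 0.71 ± 0.051 in 16T and 0.91 ± 0.053 in KP1 and rose by 2.26 ± 0.053, 4.78-fold, in KP22, per the authors' deposited table, where its adjusted p is listed as 0. Slit2 had -1.0 ± 0.46 in 16T (adjusted p = 0.0656), fell in KP1 (-1.42 ± 0.46, adjusted p = 0.00821) and had -0.39 ± 0.49 in KP22, per the authors' deposited table. Its SEs were large for its mean of 417, since the median SE of features with a mean of 100 to 1000 was 0.17 in 16T and KP1, and its call in KP1 was lost under that t distribution. Slit3 had no call at a mean of 21.9, with values between -0.90 and -0.11 in the authors' deposited table.

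The 2 abundant Robo receptors differed in direction. Robo1 rose by 0.60 ± 0.047 in 16T and 1.01 ± 0.049 in KP1 (adjusted p = 1.73e-93) and had 0.03 ± 0.048 in KP22, per the authors' deposited table. Robo2 fell by 0.59 ± 0.085 in 16T and 0.23 ± 0.083 in KP1 and rose by 1.48 ± 0.22 in KP22, 2.80-fold, in the authors' deposited table. Slit1 and Robo2 therefore fell together in both knockdown lines and rose together in KP22, whereas Robo1 rose with knockdown. The fall of Robo2 in KP1 was lost under that t distribution. The SE of Robo2 in KP22 was above the median of 0.069 there for features with a mean of at least 1000. Robo3, a receptor of crossing axons, had a mean of 3.04 and no call.

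In all, 7 genes fell in 16T, fell in KP1 and rose in KP22, each with a call: Epha5, Ephb2, Ephb3, Ntn1, Unc5d, Slit1 and Robo2. Another 3 rose, rose and fell: Epha2, Ntn4 and Unc5a. These are 20.6% and 8.82% of the 34 genes tested in all 3 comparisons, and over all 14504 such features the shares were 5.33% and 4.76%. Under the t distribution the counts were 6 (without Robo2) and 2 (without Unc5a), and the shares of all features 2.79% and 2.81%. In that setting p-values were adjusted anew and shares taken over 15008 features with a mean of at least 10, not the 14504. Calls in all 3 comparisons in any directions were made for 14 of the 34 (41.2%) and for 15.1% of all features, and under the t distribution for 10 and 7.51%. Among genes called in both lines of a pair, opposite directions between knockdown and cDNA were found for 15 of 17 with 16T and 12 of 16 with KP1 (88.2% and 75.0%). Over all features these shares were 76.2% and 70.3%, so opposite directions between knockdown and cDNA were common throughout.

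The mean of the 3 effects, each turned towards higher Nfib and computed here from the authors' effects and SEs, was called for 26 of 34 genes (76.5%), 16 towards higher and 10 towards lower. Of all 15008 features with a mean of at least 10, 52.9% were called (29.2% towards higher and 23.7% towards lower). The largest mean effects towards higher were Unc5d (1.95 ± 0.14), Ntn1 (1.86 ± 0.11), Ephb1 (1.61 ± 0.17), Epha4 (1.45 ± 0.12), Slit1 (1.29 ± 0.03) and Epha5 (1.28 ± 0.056). The largest towards lower was Epha2 (-2.38 ± 0.12), followed by Efna3 (-0.84 ± 0.12), Ntn4 (-0.68 ± 0.043), Unc5b (-0.68 ± 0.10) and Robo1 (-0.53 ± 0.028). A called mean can hide disagreement between the lines: Dcc had -0.44 ± 0.073 although its KP1 effect pointed the other way. Efnb3 had -0.19 ± 0.068 although it rose in every comparison. The called effects of Efnb1 in KP1 and of Ephb6 in 16T also pointed against their called means (-0.40 and 0.54). Of the largest means, Unc5b in 16T (-0.04) and Robo1 in KP22 (0.03) pointed against the mean without a call. Among smaller called means, Epha8 (0.42 ± 0.062) had uncalled values in 16T and KP1 that pointed against it. A called mean thus does not say that each line followed Nfib. Of the 26, 7 had a mean effect of at least 1, 6 of them towards higher. The share of all features with such a mean effect was not computed. Under the t distribution the mean was called for 23 of the 34 genes, also with no computed share of all features. The calls of Efna2, Efnb3 and Slit2 were lost there (adjusted p = 0.106, 0.0711 and 0.0942).

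**Figure D3:**
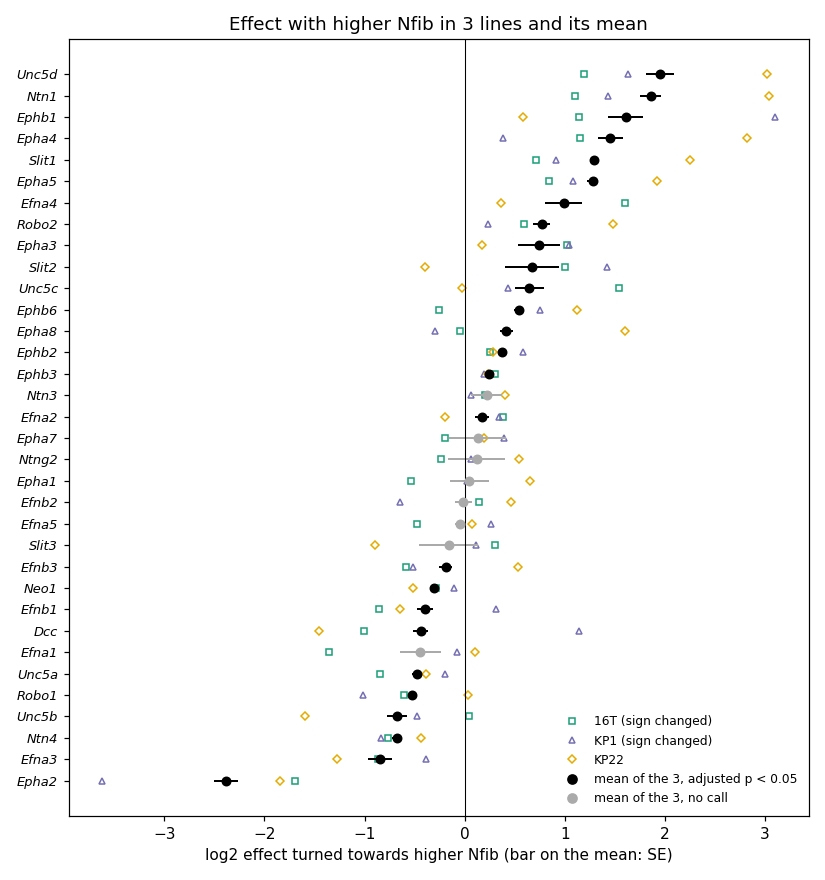
Effects of 34 guidance genes in 16T, KP1 and KP22 (open symbols), turned so that values above 0 mean more transcript with more Nfib, and the mean of the 3 with its SE (filled circles, black where called). The 3 open symbols lie on 1 side of 0 for genes such as Unc5d, Ntn1, Slit1 and Epha2 and on both sides for Dcc, Efnb1 and Efnb3.

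The difference between the knockdown effects in 16T and KP1, also computed here, was called for 16 of 34 genes (47.1%) and for 29.4% of all features tested. The receptors Dcc (16T minus KP1, 2.14 ± 0.15, adjusted p = 2.09e-42), Ephb1 (1.96 ± 0.20, adjusted p = 3.09e-20) and Epha2 (-1.93 ± 0.28, adjusted p = 2.85e-10) differed the most among them, Ephb1 and Epha2 in size and Dcc in direction. The lines were called in opposite directions for 4 of 34 genes, Dcc, Efna5, Efnb1 and Ephb6 (11.8%), against 4.54% of all features. Under the t distribution only Dcc of these kept both calls (1 of 34, and 1.73% of the 15008 features with a mean of at least 10). Ntn1 (0.33 ± 0.26), Unc5d (0.43 ± 0.22), Epha5 (0.24 ± 0.14) and Ntn4 (-0.07 ± 0.10) had no call on the difference. Under the t distribution the difference itself was called for 9 genes, and the share of all features was not computed for it.

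**Figure D4:**
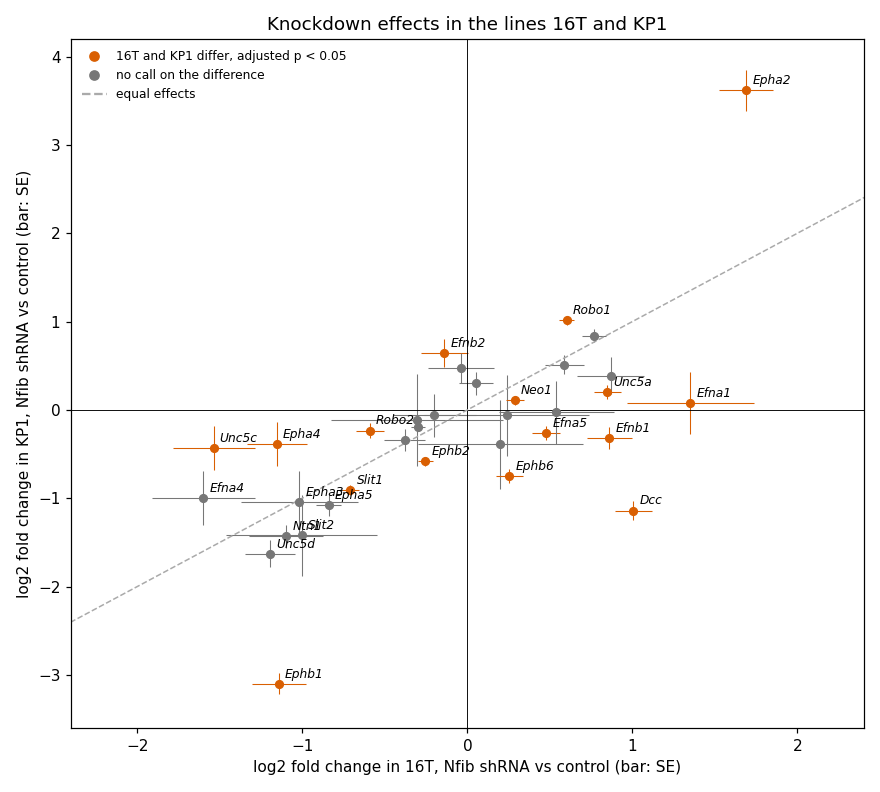
Log2 fold change with SE in KP1 against that in 16T for 34 guidance genes, orange where the difference between the lines was called, with a dashed line of equal effects. Dcc, Efnb1, Efna5 and Ephb6 lie right of and below 0, and Ephb1 and Epha2 lie far from the line on the KP1 axis.

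Co-receptors, further ligands and intracellular partners of the 3 systems were taken as a list of 42 genes. Of 40 tested in 16T, 13 rose and 11 fell (median -0.13). In KP1 11 of 40 rose and 11 fell (median -0.06), and in KP22 10 of 42 rose and 12 fell (median 0.02). These are 24 of 40, 22 of 40 and 22 of 42 called, beside 45.3%, 37.2% and 38.4% of all features. The medians over all features were -0.05, -0.02 and 0.04. Lrrc4, a synaptic ligand of netrin-G2, fell (-1.59 ± 0.30 in 16T, -2.95 ± 0.29 in KP1) and rose by 1.75 ± 0.28 in KP22, per the authors' deposited table. Dscaml1, a relative of the netrin co-receptor DSCAM, rose in every comparison, by 1.61 ± 0.13 in 16T, 0.83 ± 0.095 in KP1 and 0.40 ± 0.093 in KP22, per the authors' deposited table. The gene of the Slit-Robo GTPase activator Srgap1 rose in 16T (1.60 ± 0.13), had -0.13 ± 0.12 in KP1 and fell in KP22 (-1.67 ± 0.12) in the authors' deposited table. The genes below complete the 4 called changes of largest size in each comparison of the authors' deposited table. In the order 16T, KP1 and KP22, the gene of the actin-binding protein Ablim1 had -1.20 ± 0.14, -0.24 ± 0.13 and -0.82 ± 0.15, with calls in 16T and KP22. Nell2, a ligand of Robo3, had -0.86 ± 0.32, -1.08 ± 0.32 and 0.22 ± 0.46 and fell in both knockdown lines, per the authors' deposited table. Dapk1, encoding a kinase that acts below UNC5 receptors, had -0.18 ± 0.079, -0.71 ± 0.077 and 0.34 ± 0.082, a fall in KP1 and a rise in KP22, per the authors' deposited table. Enah, encoding an actin regulator, and Rgma, a ligand of neogenin, were called in KP22 alone of the 3 comparisons, at -2.66 ± 0.39 and 2.13 ± 0.20 in the authors' deposited table. The SE of Enah was large for its mean of 3347. The median SE in KP22 was 0.069 for features with a mean of at least 1000.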

How the data were processed

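RNA of 12 samples was measured with an Illumina TruSeq kit per the labels' protocols. The submitters' processing notes list DESeq2, DESeq, bedtools and TopHat on mm10; no version is named there. A table that the authors deposited, whose name mentions cqn, gives per feature a mean signal (normalized count over all libraries), log2 fold changes with SEs, Wald scores and p-values against 0 and against an absolute change of 0.5, per the file headers. The SE never exceeded 0.521, even for the lowest means, as when a fit draws effects of low genes towards 0, though no source used here states such a step. The lowest mean with an adjusted p was 15.7 (0.926 in KP22). The authors' deposited exon list (211975 merged RefSeq intervals) gave positions and exon lengths; intervals merged from several entries carry joined names and were set aside, which concerns some exons of 12 of the 41 genes.

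Calls are the authors' adjusted p below 0.05. The mean over 3 lines and the 16T minus KP1 difference were computed for 15008 features with a mean of at least 10 (independent errors, p-values from a normal distribution, Benjamini-Hochberg adjustment), and the arithmetic was checked on simulated data (Python 3.11.15, scipy 1.17.1). The simulated errors were normal with the authors' SEs. They therefore cannot show whether these SEs or the normal reference hold with 2 samples a group. Alternatives were the test against 0.5, a change of at least 1, recentring, a t distribution with 6 degrees of freedom and other minimum means. The 6 degrees of freedom equal 12 samples less 6 groups, as if the spread were shared over all groups. Every guidance gene called at least once is named with its value in all 3 comparisons, and of the 42 partner genes the 4 called changes of largest size per comparison. Members and lists were chosen with earlier results of these data known. The table holds no column of values per sample, so no count test was run.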

Additional observations from a re-analysis of the deposited data

Results flagged for a closer look

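The knockdown effects of 16 guidance genes differed between 16T and KP1 by the test of the difference itself (16T minus KP1 on the log2 scale, normal reference with Benjamini-Hochberg adjustment over 15008 features). Both lines were called in opposite directions for Dcc at 2.14 ± 0.15 (adjusted p = 2.09e-42), Efnb1 at 1.18 ± 0.19 (adjusted p = 4.72e-09), Ephb6 at 1.01 ± 0.11 (adjusted p = 9.03e-18) and Efna5 at 0.74 ± 0.12 (adjusted p = 5.71e-09). Falls of unequal size were found for the receptors Ephb1 at 1.96 ± 0.20 (adjusted p = 3.09e-20), Ephb2 at 0.33 ± 0.066 (adjusted p = 9.07e-06) and Robo2 at -0.36 ± 0.12 (adjusted p = 0.0123) and for the ligand Slit1 at 0.20 ± 0.073 (adjusted p = 0.0244). Rises of unequal size were found for Epha2 at -1.93 ± 0.28 (adjusted p = 2.85e-10), Robo1 at -0.41 ± 0.068 (adjusted p = 2.02e-08) and Unc5a at 0.65 ± 0.11 (adjusted p = 1.85e-07).

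For the other 5 genes only 1 of the 2 lines had a call of its own. The difference was 1.27 ± 0.52 (adjusted p = 0.047) for Efna1 and 0.18 ± 0.073 (adjusted p = 0.0497) for Neo1, both higher in 16T. It was -1.10 ± 0.35 (adjusted p = 0.00761) for Unc5c and -0.77 ± 0.31 (adjusted p = 0.0459) for Epha4, both lower in 16T, and -0.78 ± 0.21 (adjusted p = 0.00139) for Efnb2, higher in KP1. All 5 of these differences lost their call under the t distribution: Efna1 (adjusted p = 0.168), Neo1 (0.171), Unc5c (0.0953), Epha4 (0.167) and Efnb2 (0.0651). So did the differences of Slit1 (adjusted p = 0.133) and Robo2 (0.108). Under the t distribution only Dcc of the 4 genes called in opposite directions kept both calls. The causes of these differences were not tested, and each line was measured with 2 samples a group and 1 shRNA.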

How the results depend on the processing

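No paired analysis was possible because the table holds results of comparisons and no values per sample; for the same reason leaving out each replicate was not run. Against the 25, 23 and 20 genes changed in 16T, KP1 and KP22, the authors' test against a change of 0.5 called 11, 10 and 12, and a minimum change of 1 left 10, 9 and 12. A t distribution with 6 degrees of freedom left 14 in KP1 and 9 of the 16 genes differing between 16T and KP1. A minimum of 1 left 7 of those 16, and 7 of the 26 genes with a mean effect over the 3 lines. These alternatives are stricter by construction. Of these counts, only those for a minimum change of 1 in the 3 comparisons have a computed share of all features. The other counts have no background beside them. All other alternatives kept these counts within 1.5 times. Recentring on the median gene turned the sign of 2 values with no call, Unc5b in 16T (0.011) and Robo1 in KP22 (-0.017), and ended the calls of Efnb1 in KP1 (adjusted p = 0.0514), of the difference for Epha4 (adjusted p = 0.058) and of the mean effect of Efna2 (adjusted p = 0.108). It added calls for Epha8 (adjusted p = 0.0399) and Neo1 (adjusted p = 0.0378) in KP1 and for the mean effect of Efna1 (adjusted p = 0.0364). Depth per library is unknown here, so the authors' SEs alone limit what could be seen, with a median of 0.46 in 16T for features with a mean of 10 to 100.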

Other observations

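Exons that overlap another RefSeq entry were held under joined names, and 15 such features contain a guidance gene, 8 of them only that gene. They are a separate measurement of other exons in the same libraries. The joined exons of Ephb2, 40.9% of its exon bases, had -0.20 ± 0.058, -0.50 ± 0.06 and 0.25 ± 0.057 for 16T, KP1 and KP22, per the authors' deposited table, all 3 called. In the same order, those of Neo1 had 0.46 ± 0.20, 0.06 ± 0.20 and -0.58 ± 0.20 and those of Ephb6 0.56 ± 0.31, -0.68 ± 0.30 and 0.76 ± 0.31, per the authors' deposited table. The signs were those of the single-name features of these 3 genes in each comparison. The joined exons of Neo1 had no call in KP1 (adjusted p = 0.88). Those of Ephb6 had none in 16T (adjusted p = 0.131) or KP1 (adjusted p = 0.0703). Exon bases that Unc5a shares with Hk3 had 0.66 ± 0.13, 0.32 ± 0.13 and -0.43 ± 0.12 in the authors' deposited table, and reads of the 2 genes cannot be told apart there. Intervals shared with other genes hold 63.4% of the exon bases of Ntn3 (with Tbc1d24) and 70.7% of those of Ntng2 (with 6530402F18Rik), so the values of these genes rest on the smaller part of their exon bases.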
